A study of Mus musculus with 8 samples.

Results

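The genes described here encode regulators and members of the small GTPase families and carry at least 1 peak of N6-methyladenosine (m6A, adenosine of RNA carrying a methyl group) in mouse spermatogenic cells. They were chosen by name: every gene whose symbol in any of the 4 deposited peak lists begins with Arhgap, Arhgef, Dock, Tbc1d, Rasgrp, Rapgef or Rab followed by a digit. The rule found 92 genes among the 8733 that the lists name, out of 53465 genes in the count table. They comprised 21 Arhgap, 12 Arhgef, 3 Dock, 19 Tbc1d, 5 Rapgef and 24 Rab genes, and 8 genes named for a Rab that they bind or regulate (Rab11fip1 to Rab11fip5, Rab3gap1, Rab3ip and Rab3il1, called Rab partners below). No Rasgrp gene had a peak in any list. Of the 92 genes, 89 are protein coding and 3 are antisense genes (Arhgap20os, Arhgap33os and Rapgef4os3). Since having a peak in some list is part of the rule, that fact is not a result.

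The samples came from testes of C57BL/6 mice aged 12 weeks that were wild type (WT) or Alkbh5-/- (KO). Alkbh5 is a demethylase that removes m6A from RNA. The labels give 2 cell fractions as PA and RO. By the title of the series the cells are pachytene spermatocytes, which are in meiosis, and round spermatids, its haploid products. Values of the 4 libraries or lists are given in the order WT PA, KO PA, WT RO, KO RO unless stated. Each genotype and fraction has 1 input library, of unselected RNA fragments of 100 to 200 nt, and 1 library of fragments pulled down with an antibody against m6A. How the fractions were separated, how many mice were pooled and which part of Alkbh5 was deleted are not given in the sources used here. With 1 library per group no difference was tested, and all intervals below are 95% intervals that cover counting error only.

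Small GTPases are molecular switches, active when bound to GTP. Guanine nucleotide exchange factors (GEFs, among them the Arhgef, Dock and Rapgef proteins) load them with GTP, and GTPase-activating proteins (GAPs, among them the Arhgap proteins and most Tbc1d proteins, the latter for Rab GTPases) switch them off. Cdc42 and Rac GTPases organise actin, Rap GTPases act on cell adhesion, and Rab GTPases direct vesicles between membrane compartments. In germ cells such switches are known to act in the intercellular bridges, in cell contacts with Sertoli cells and in the formation of the acrosome from Golgi vesicles.

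m6A is laid down mainly at adenosines followed by C, within a short consensus. RefSeq start windows (GRCm38.p6) were held for 71 of the 92 genes, and peaks of 4 genes reached the 50 bases after a start site. In 3 of these genes the stretch under the peak held GGAC or AGAC followed by A, C or T, and it is shown because it lets the consensus be read under a peak near a start. The stretches are written 5′ to 3′ on the strand of the gene, with the matches in capitals.
Arhgap5, chr12:52516093-52516122, plus strand: tgatctcgaagaAGACCtttctttggcaat
Arhgef12, chr9:43105689-43105718, minus strand: cggcccggGGACAtggggcggcgcgagtcc
Rab3il1, chr19:10001699-10001718, plus strand: gaagaGGACCAGACTtggca
Rab3il1, chr19:10001744-10001773, plus strand: gctgggcctggcAGACCtggctgctgtctc
The stretch of Arhgap5 lay under a peak in the WT PA, KO PA and KO RO lists, and those of Arhgef12 and Rab3il1 in the KO PA list alone. In Tbc1d5 only 3 bases after the start lay under the peak, and they held no match. Such a match occurred on the gene strand in the first 50 bases of 28.3% of all 32851 start windows, and on either strand in 48.8%. A match is a description of the letters and does not show which adenosine carries the mark.

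The input libraries held 13147239, 9921365, 12084838 and 10152198 counts. Levels are given as CPM, counts set to a common library size after scaling by edgeR's TMM factors, which lay between 0.892 and 1.09. The fractions were set against marker lists, of which only genes with a peak have a symbol. The summed CPM of 11 pachytene markers was 3925, 2081, 3440 and 2435, so these markers did not separate PA from RO. That of 11 round spermatid markers was 754, 1009, 1044 and 1447, a sum higher in RO than in PA in both genotypes. Singly, 4 of them in WT and 2 in KO were at least 2-fold higher in RO. Tssk2 was lower in RO than in PA in WT, and Ldhc, Tex36 and Spata16 were in KO. The 7 Sertoli markers summed to 641, 685, 457 and 524 CPM, the 4 Leydig markers to 207, 63.7, 63.1 and 36.3, the 6 markers of muscle, endothelium and macrophages to 437, 477, 242 and 457, and the 4 spermatogonial markers to 53.0, 92.8, 41.4 and 57.2. No marker with a symbol was at 0. Alkbh5 itself has no symbol in the lists and was not analysed here, so its counts did not check the genotype labels.

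The regulators held 107, 121, 111 and 98 peaks in the 4 lists, which lay in 62, 69, 61 and 61 genes. KO lists held 1.13 times the WT peaks in PA (interval 0.865 to 1.48) and 0.883 times in RO (0.666 to 1.17), next to 1.32 and 0.939 over all peaks of the lists. Both intervals for the regulators hold 1 and the value over all peaks. Among regulators with a peak, 37.1%, 40.6%, 44.3% and 34.4% had more than 1, against 33.1%, 35.0%, 34.6% and 32.6% of all genes with a peak. Of the regulator peaks, 12, 1, 18 and 3 missed a false discovery rate of 0.05 as the authors' deposited lists give it. That is 11.2%, 0.83%, 16.2% and 3.06% of them, next to 6.88%, 2.15%, 13.1% and 3.54% of all peaks.

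**Figure D1:**
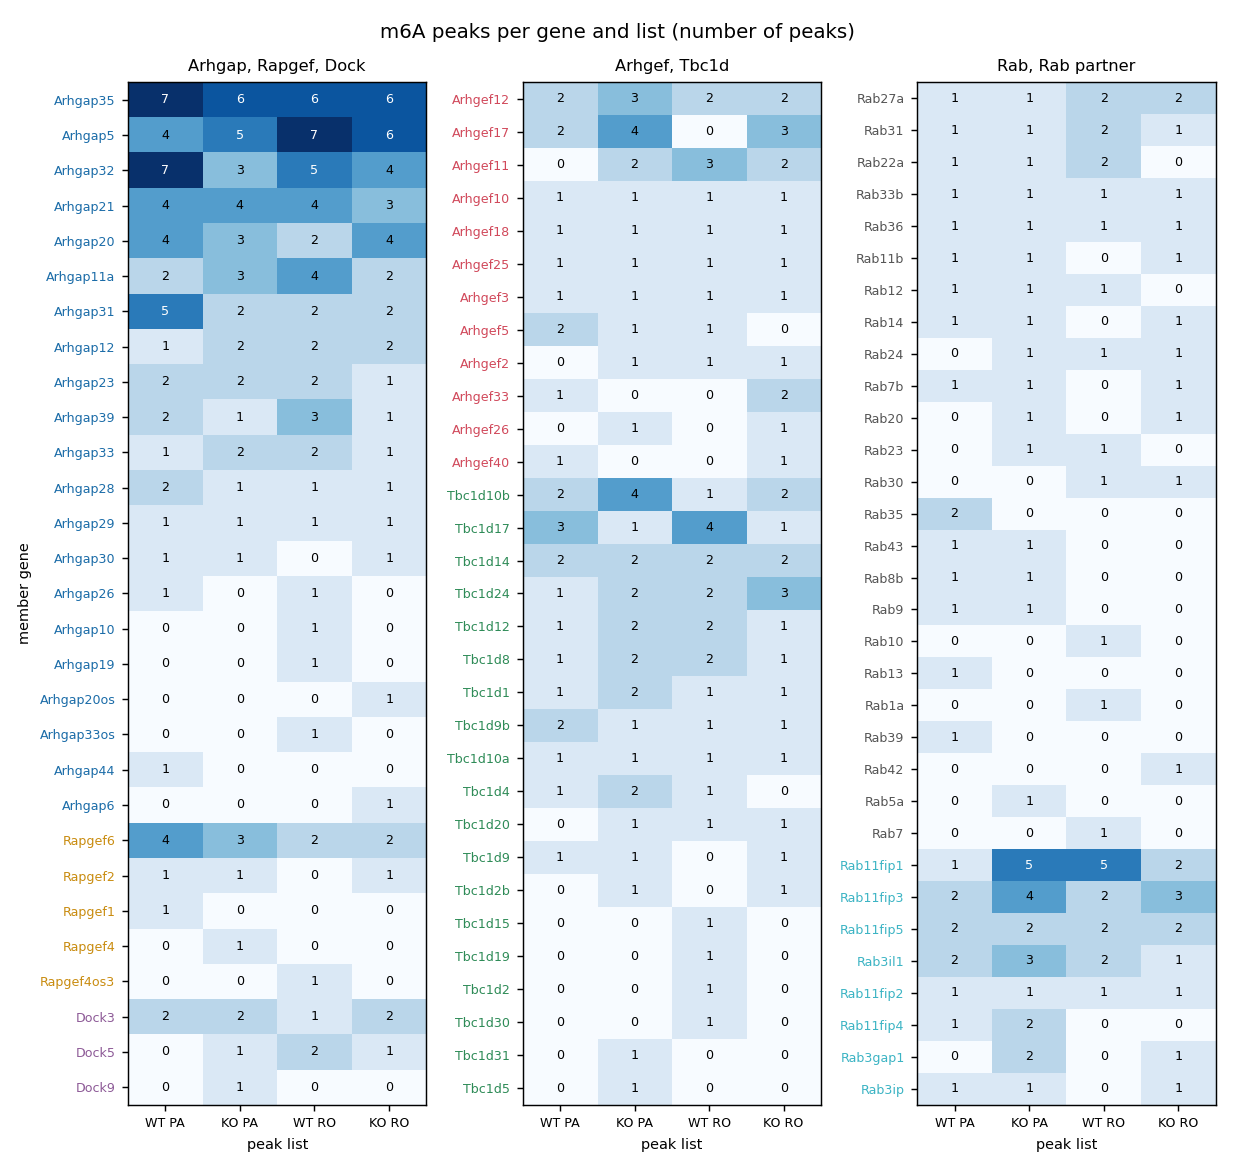
Number of m6A peaks per regulator gene (rows, coloured by family) in each of the 4 peak lists (columns), 1 list per genotype and cell fraction. Arhgap35, Arhgap5 and Arhgap32 hold 3 to 7 peaks in every list, while most Rab genes hold 0 or 1.

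The Arhgap genes, which encode GAPs, held the most peaks of the families, 163 over the 4 lists, in 53 separate regions (peaks of different lists whose exons overlap count as 1 region). Arhgap35 and Arhgap5 encode the closely related p190 GAPs, which act on RhoA. Arhgap35 had 7, 6, 6 and 6 peaks in the 4 lists, and Arhgap5 had 4, 5, 7 and 6. Both genes were marked along their coding sequence, in 3 regions of Arhgap35 between chr7:16561503 and chr7:16614543 and in 6 regions of Arhgap5. Arhgap35 also had 2 regions in its 3′ untranslated region (3′UTR), of which chr7:16497078-16497617 was found in every list. Their input counts were of similar size in each library: 2567, 2137, 2274 and 1625 for Arhgap35, and 2117, 2167, 1684 and 1677 for Arhgap5.

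Arhgap32, a GAP for Cdc42 and Rac1 known from neurons, had 7, 3, 5 and 4 peaks, 11 of them within chr9:32259212-32261371. A broad KO PA peak covered most of that stretch, where the WT PA list had 4 separate peaks, so a lower number of peaks there is not a smaller marked length. The strongest peak in it had a fold, the authors' ratio of pulled-down over input signal within a list, of 101, 51.6, 215 and 200. Arhgap29, a RhoA-directed GAP, had a single peak in each list at chr3:122014145-122014984 in its coding sequence, with folds of 106, 54.8, 437 and 181. These were the highest folds among the regulators in WT PA and in WT RO. A fold moves with the depth of its own input and captured library, so folds are not compared between lists.

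Other Arhgap genes differed between lists. Arhgap31, a GAP for Cdc42 and Rac1, had 5 peaks in WT PA and 2 in each other list; its region at chr16:38601454-38602832 was in all 4 lists, with folds of 25.3, 52.6, 14.8 and 14.9. Arhgap20 had 4, 3, 2 and 4 peaks and Arhgap21 had 4, 4, 4 and 3. Arhgap23 had a coding region, chr11:97451608-97452356, in every list with folds of 35.3, 49.4, 404 and 31.5. A second exonic region of Arhgap23, chr11:97500250-97500608, was found in WT PA (fold 67.5) and WT RO (fold 6.73) and in neither KO list. Arhgap12 had the second highest fold among the regulators in KO PA, 123, in its coding sequence. The antisense genes Arhgap20os and Arhgap33os had 1 peak each, in KO RO and WT RO respectively. Strand handling is not stated, so an antisense gene and its partner may share reads.

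The 12 Arhgef genes, which encode GEFs, held 55 peaks in 28 regions, and no Arhgef gene was marked in 1 list only. Arhgef12 encodes a RhoA exchange factor that couples to heterotrimeric G proteins. Its coding region at chr9:42972050-42974621 was in every list, with folds of 6.25, 25.9, 102 and 30.4, and its 5′UTR region was in WT PA, KO PA and KO RO with folds of 2.44, 38.7 and 5.14. Arhgef17 had 2, 4, 0 and 3 peaks, with its coding region chr7:100929169-100929798 at folds of 25.3, 12.0 and 34.4 in WT PA, KO PA and KO RO. It had 316 input counts in WT RO, the lowest of its 4 values (508, 760, 316 and 452). Arhgef2, the microtubule-bound RhoA exchange factor, had no peak in WT PA and 1 in each other list, next to input counts of 2165, 2280, 3359 and 2782.

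The 5 Rapgef genes, GEFs for Rap GTPases, held 17 peaks, 11 of them in Rapgef6. Its coding region chr11:54691260-54691710 was in every list with folds of 19.0, 58.3, 54.5 and 26.6, and so was a 3′UTR region at chr11:54697095-54697455. Rapgef2, the nearest relative of Rapgef6, had 1 coding peak, chr3:79069059-79069299, in WT PA, KO PA and KO RO (folds 25.3, 35.0 and 22.1) and none in WT RO. Rapgef1 had 1 3′UTR peak in WT PA, Rapgef4, the cAMP-activated exchange factor, 1 3′UTR peak in KO PA, and the antisense gene Rapgef4os3 1 peak in WT RO.
The 3 Dock genes, GEFs for Rac and Cdc42, held 12 peaks, 11 of them in the 3′UTR. The 2 neighbouring 3′UTR regions of Dock3, chr9:106894653-106894893 and chr9:106894953-106895253, carried all of its peaks but a coding peak in WT PA. In WT RO the first of them had a fold of 143, and the second had no peak. Input counts of Dock3 were 1964, 1907, 2251 and 2091, a narrow range.

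The 19 Tbc1d genes, most of them GAPs for Rab GTPases, held 78 peaks in 33 regions. Tbc1d17 had 3, 1, 4 and 1 peaks, all in its 3′UTR. Its region chr7:44839979-44840518 was in every list with folds of 34.8, 47.8, 124 and 24.8. The region chr7:44838154-44838513 was in the WT lists alone (folds 3.95 and 48.0), and a further peak at chr7:44838812-44839022 was in WT PA alone with a fold of 74.8, the highest among WT PA regulator peaks with no overlap in KO PA. Tbc1d8 had a region at the end of its coding sequence and the start of its 3′UTR, chr1:39372121-39372749, in all lists (folds 20.0, 52.3, 209 and 136).

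Tbc1d24, whose protein joins a TBC domain to a TLDc domain, had 1, 2, 2 and 3 peaks, with its coding region chr17:24185866-24189693 at folds of 53.5, 60.9, 67.3 and 136. Tbc1d10b had 2, 4, 1 and 2 peaks. Tbc1d12 had a region at chr19:38914397-38917983 with a fold of 40.2 in KO PA and no overlapping peak in WT PA, although the region was also marked in WT RO and KO RO. Tbc1d9 had its coding peak in WT PA, KO PA and KO RO (folds 11.6, 30.5 and 61.2) but not in WT RO, where its input counts were highest (428, 406, 1035 and 491). Tbc1d2, a GAP for Rab7 that acts on endosomes, had 1 peak, in WT RO, with a fold of 49.8. Tbc1d31, a protein of the centrosome region, had 1 peak, in KO PA, next to input counts of 3332, 1992, 3599 and 2562.

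The 24 Rab genes, the GTPases themselves, held 59 peaks in 30 regions and at most 2 peaks in any list. Rab33b, a Golgi Rab, had a region at chr3:51484579-51493894 in every list with folds of 22.1, 85.7, 79.4 and 136. Rab36 and Rab27a were also marked in all 4 lists, both in the 3′UTR. Rab23, which acts in hedgehog signalling at the cilium, had a 3′UTR peak in KO PA and in WT RO (folds 19.2 and 74.0). Rab22a, an early endosome Rab, had a 3′UTR region at chr2:173701154-173701424 in WT PA, KO PA and WT RO (folds 12.6, 11.3 and 68.6). Rab20 had a coding peak in the KO lists alone (folds 24.1 and 25). Rab39 had its only peak in WT PA with a fold of 17.9, while its input counts were 0, 16, 5 and 5, so this peak lies on a gene for which the WT PA input held no count.

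The 8 Rab partners held 53 peaks in 23 regions. The Rab11fip genes encode effectors that link Rab11 on recycling endosomes to motors and tethers. Rab11fip5 had 2 coding peaks in each list, and the one at chr6:85341651-85342070 had folds of 56.8, 155, 29.8 and 117, the highest fold among the regulators in KO PA. Rab11fip1 had 1, 5, 5 and 2 peaks, of which only chr8:27154242-27154692 was in all lists (folds 32.1, 72.2, 14.8 and 12.8). Its input counts were 511, 706, 489 and 548, and their relation to these numbers of peaks was not tested. Rab11fip2 had 1 coding peak per list (folds 86.2, 40.9, 92.8 and 64.7), and Rab11fip3 had 2, 4, 2 and 3 peaks. Rab3il1, an exchange factor for Rab GTPases of secretory vesicles, had a 3′UTR region at chr19:10034505-10034893 in all lists with folds of 16, 91, 27.1 and 14.1.

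By the authors' feature classes, 60.7%, 54.5%, 55.9% and 60.2% of the regulator peaks lay in coding sequence, next to 56.4%, 55.2%, 49.8% and 53.4% of all peaks. The 3′UTR held 28.0%, 30.6%, 29.7% and 25.5%, next to 20.7%, 21.8%, 24.6% and 24.0% of all peaks. Only in KO PA did the interval of the regulators (23.1% to 39.3%) lie above the value over all peaks, and no difference was tested. The class that the lists call exon held 9.35%, 9.09%, 11.7% and 11.2% of regulator peaks and 20.0%, 19.2%, 21.7% and 19.4% of all peaks. The upper bounds of the regulators' intervals for this class, 16.4%, 15.5%, 19.0% and 19.0%, lay below the value over all peaks in each list. Nearly all regulators are protein coding, while the lists hold other gene classes too. The part of gene class in these shares was not tested. Protein-coding regulators such as Rab33b and Arhgef25 had peaks of the exon class as well. The 5′UTR held 2, 7, 3 and 3 regulator peaks.

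The families differed in where their peaks lay. Coding sequence held 122 of the 163 Arhgap peaks (74.8%) and 11 of the 59 Rab peaks (18.6%), while the 3′UTR held 19 of the Arhgap peaks (11.7%) and 37 of the Rab peaks (62.7%). The lists share most of their peaks, so peaks added over 4 lists are not independent. Counted once per region, coding sequence was a class of 36 of 53 Arhgap regions and 8 of 30 Rab regions, and the 3′UTR of 9 and 18. Rab partners (32 of 53 peaks) and Tbc1d genes (49 of 78) lay mostly in coding sequence, and 8 of the 15 regulator peaks in a 5′UTR belonged to Arhgef genes. The lengths of coding sequence and 3′UTR of these genes were not compared.

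**Figure D2:**
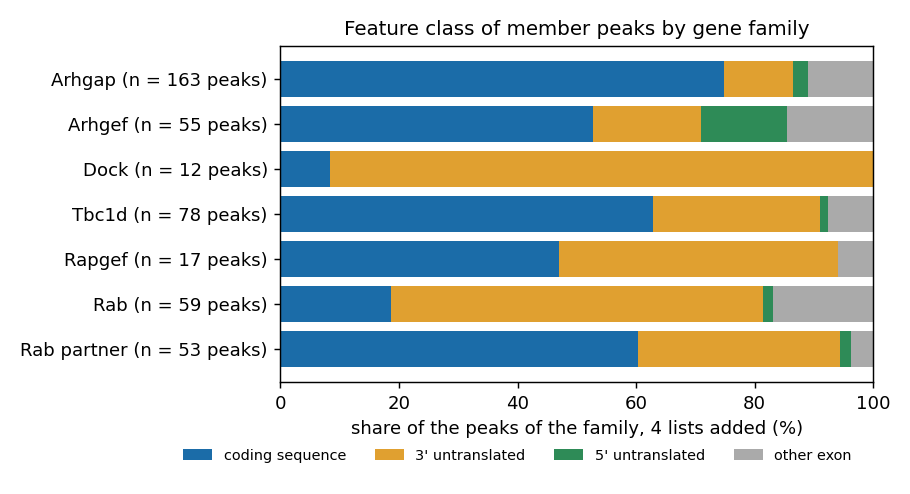
Share of peaks (%, 4 lists added) in coding sequence, 3′UTR, 5′UTR and other exons for each family, with the number of peaks beside its name. Arhgap peaks lie mostly in coding sequence (74.8%), and Rab (62.7%) and Dock (91.7%) peaks mostly in the 3′UTR.

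Peaks of different lists were called shared when their exons, on 1 strand, had at least 1 base in common. In PA, 83 of the 107 WT peaks of the regulators (77.6%, interval 68.8% to 84.4%) were found in the KO list too, and 73 of the 121 peaks of that list (60.3%, 51.4% to 68.6%) in the WT list, next to 79.7% and 56.6% over all peaks. In RO the shares were 61.3% of WT peaks and 67.3% of KO peaks, next to 55.9% and 58.9%. Between the fractions, 59.8% of WT PA and 54.1% of WT RO peaks were shared (64.1% and 50.6% over all peaks), and 70.2% of KO PA and 90.8% of KO RO peaks (70.0% and 81.1% over all peaks). The interval of the KO RO share (89 of 98, 83.5% to 95.1%) was the only one of the 8 intervals to lie above the value over all peaks, and no difference was tested. Shared peaks had higher folds than the others of the same list, with medians between genotypes of 17.6, 28.2, 26.5 and 19.2 against 8.07, 9.69, 10.8 and 8.35 for the others. Over all peaks of the lists the same held, with medians of 13.2, 18.8, 21.5 and 15.7 against 9.49, 9.40, 12.1 and 9.13.

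The 437 regulator peaks formed 181 regions. Of these, 48 (26.5%) were marked in all 4 lists and 80 (44.2%) in 1 list, next to 23.9% and 42.9% of the regions of all genes. Single-list regions numbered 20, 22, 33 and 5 in the 4 lists, which is 11.05%, 12.2%, 18.2% and 2.76% of the regulator regions next to 5.60%, 11.5%, 18.9% and 6.88% of the regions of all genes. Of those in WT PA and WT RO, 11 and 13 missed a false discovery rate of 0.05, and of those in KO PA and KO RO 1 and 2 did.

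By gene, 38 of the 92 regulators (41.3%) had a peak in every list, next to 34.4% of all genes with a peak. In PA, 54 genes had a peak in both genotypes, 8 in WT only (background over all genes with a peak in PA 10.9%) and 15 in KO only (31.0%). Among the 77 regulators with a peak in PA those counts are 10.4% and 19.5%. In RO, 44 genes had a peak in both genotypes, 17 in WT only (background 25.9%) and 17 in KO only (23.0%), each 21.8% of 78. Between fractions, 19 genes in WT had a peak only in PA (background 17.3%) and 18 only in RO (32.8%), and in KO the counts were 14 (19.3%) and 6 (12.0%). Of these shares, only that of genes marked in PA alone in WT (23.8% of 80) lay above its background. Genes with a peak in both KO lists and in neither WT list were Arhgef26, Rab20, Rab3gap1 and Tbc1d2b, and the gene with a peak in both WT lists alone was Arhgap26. The peaks of Arhgap26 in the WT lists lay in different regions. By region, 12 regulator regions (6.63%) were marked in both KO lists alone, next to 7.69% of the regions of all genes. Those marked in both WT lists alone were 2 (1.10%), next to 2.11%. The share of all genes with these patterns was not computed.

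The input counts ask whether the transcripts of these genes differed between genotypes. In PA, 6 of the 92 regulators were at least 2-fold higher in KO and 11 at least 2-fold lower, 18.5% in all, counting genes that reached a CPM of 1 in 1 library or both. Over all genes the same rule called 43.7%, 23.8% higher and 19.9% lower, and over genes with a peak it called 27.0%. In RO, 14 of 91 regulators were higher and 11 lower, 27.5% in all, next to 42.1% of all genes (23.0% higher, 19.0% lower) and 27.0% of genes with a peak. At a CPM of at least 10 in 1 library or both, 14.3% of 84 regulators passed 2-fold in PA and 24.1% of 79 in RO, next to 26.4% and 24.6% of all genes. The median log2 ratio of the regulators was -0.18 in PA and -0.08 in RO, next to 0.04 in each over all genes. Over genes with a peak, which every regulator has by rule, the medians were -0.051 in PA and -0.055 in RO. Without TMM, scaled by library totals alone, 10 were higher and 5 lower in PA and 20 higher and 6 lower in RO, and the medians were 0.11 and 0.10 next to 0.35 and 0.22 over all genes. The regulators' median thus lay below that of all genes under both scalings, but the balance of higher and lower calls did not hold. The spread of the ratios (robust SD 0.62 in PA and 0.79 in RO) was far above the typical counting SD of about 0.08 (PA) and 0.09 (RO), and with 1 library per group it holds differences between samples of any kind.

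Where a CPM of 10 was asked of the higher library of each comparison, 79 regulators could be followed in both fractions. Arhgap33, Arhgap33os, Arhgef10, Arhgef25, Arhgef33 and Rab36 were at least 2-fold lower in KO in both PA and RO, and Tbc1d10b was at least 2-fold higher in both. The background of the first count is 5.85% of all genes (6.07% of genes with a peak) and of the second 4.37% (3.44%). No regulator was past 2-fold in opposite directions. Over the 79 genes the log2 ratios in PA and RO had a Pearson correlation of 0.63 and a Spearman correlation of 0.63, and 58 had the same sign. These values were not computed over all genes, so they do not set the regulators apart from other genes. The 2 comparisons share no library, but their libraries share the scaling and the genotypes, and genes are not independent replicates.

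**Figure D3:**
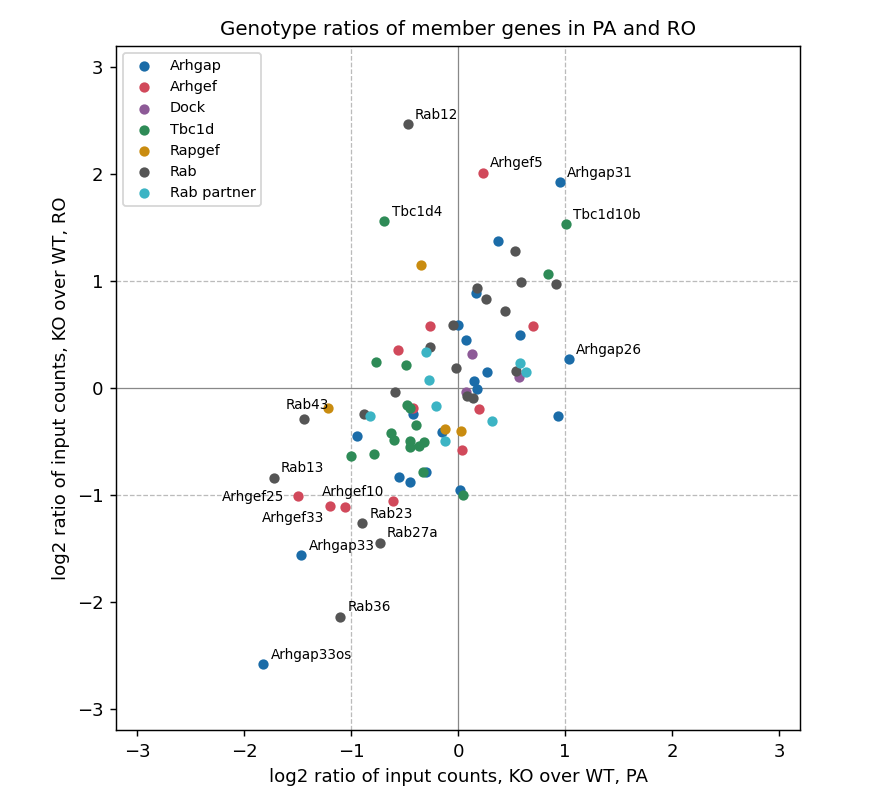
Log2 ratio of input CPM, KO over WT, in PA (x axis) and RO (y axis) for the 84 regulators with a CPM of at least 10 in any library, coloured by family. Dashed lines mark 2-fold. The genes at the lower left, Arhgap33os, Arhgap33, Rab36, Arhgef25, Arhgef33 and Arhgef10, are past 2-fold lower in both fractions, and Tbc1d10b is past 2-fold higher in both.

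Arhgap33 encodes a GAP of the sorting nexin type that binds Cdc42. It had 3691, 1230, 4212 and 1354 counts, so both WT libraries were high and both KO libraries low. Its log2 ratios of KO over WT were -1.47 (interval -1.56 to -1.37) in PA and -1.56 (-1.65 to -1.48) in RO, while RO and PA differed by 0.22 or less in either genotype. Its coding region chr7:30524091-30524451 was marked in every list (folds 14.1, 64.7, 27.1 and 15.8). The antisense gene Arhgap33os had 857, 222, 886 and 139 counts, the same order of genotypes, with log2 ratios of -1.82 in PA and -2.58 in RO. Since strand handling is not stated, the counts of this pair may share reads and are not 2 separate observations.

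Arhgef25, a RhoA exchange factor that binds the G protein subunit Gq, had 2058, 671, 1236 and 583 counts, and log2 ratios of -1.50 in PA and -1.01 in RO. Arhgef33 had 2222, 893, 2525 and 1119 counts (log2 ratios -1.20 and -1.10), and Arhgef10, another RhoA exchange factor, 1859, 823, 1466 and 643 (-1.06 and -1.11). In these 3 genes both WT libraries lay above both KO libraries. Arhgef10 and Arhgef25 were marked in all 4 lists, whereas Arhgef33 had 1 peak in WT PA, 2 in KO RO and none in the other lists. Rab36, a Rab of the Golgi and late endosomes, had 527, 225, 696 and 149 counts and log2 ratios of -1.10 in PA and -2.14 in RO.

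Tbc1d10b, a Rab GAP of the EPI family, had 167, 312, 127 and 353 counts, with both KO libraries above both WT libraries. Its log2 ratios were 1.01 (interval 0.74 to 1.30) in PA and 1.53 (1.25 to 1.85) in RO. In PA it had 4 peaks in KO and 2 in WT. For Arhgef10, Arhgef25, Arhgef33, Rab36 and Tbc1d10b at least 1 of the ratios lay close to the 2-fold line. Scaled by library totals alone, Arhgap33, Arhgap33os and Tbc1d10b kept their calls in both fractions, and Arhgef10, Arhgef25, Arhgef33 and Rab36 each missed 2-fold in at least 1 fraction (for example -0.82 for Rab36 in PA and -0.83 for Arhgef25 in RO). The summed pachytene markers were also lower in both KO libraries than in both WT libraries, the same direction as the 6 lower genes, and their part in these ratios was not tested. Sycp2 gave 1777 of the 3925 CPM of that sum in WT PA. Of the 11 markers, 4 were at least 2-fold lower in KO in PA and 1 in RO, and 0 were 2-fold higher in either. Syce2 and Ovol2 were above 0 in PA, and Sycp1 and Syce2 in RO. Of the 11 round spermatid markers 7 were at least 2-fold higher in KO in PA (median log2 ratio 1.23), in PA the direction of Tbc1d10b. In RO 5 were higher and 1 lower (median 0.08). Acrv1, Acr and Spata16 were below 0 in PA, and Acrv1, Acr, Tex36 and Spata16 in RO. The part of these markers was not tested either. In bulk samples fewer cells of a type and less RNA per cell cannot be told apart.

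**Figure D4:**
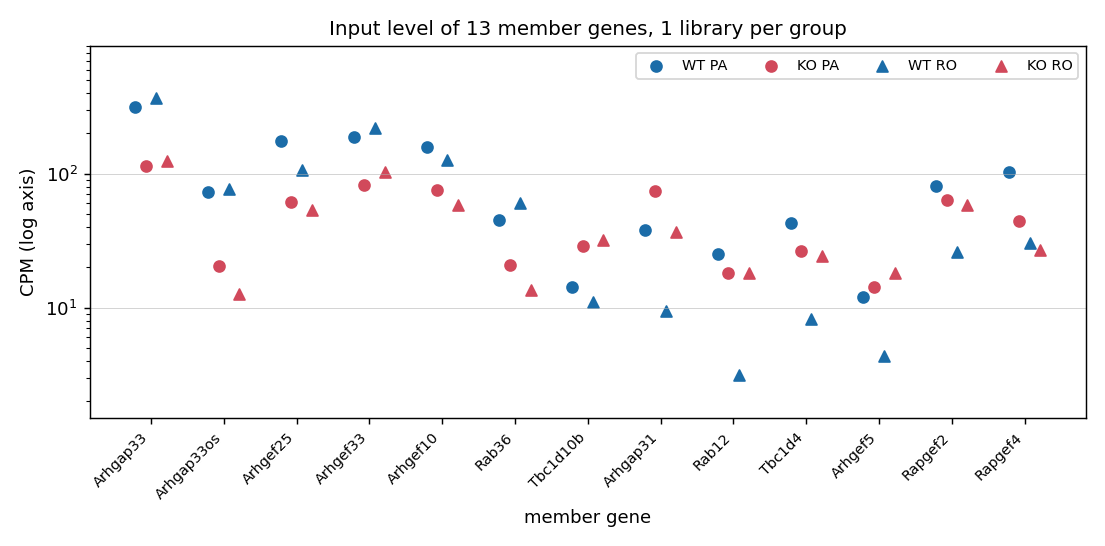
Input level (CPM, log axis) of 13 regulator genes in the 4 input libraries, 1 library per group; blue is WT, red is KO, circles are PA and triangles RO. From Arhgap33 to Rab36 both KO values lie below both WT values, for Tbc1d10b both lie above, and from Arhgap31 to Rapgef2 the WT RO value is the lowest.

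Several genes were past 2-fold higher in KO in RO and had their lowest count in WT RO. Rab12, a Rab of recycling endosomes and lysosomes, had 294, 195, 36 and 198 counts. Only WT RO stood apart, and so the log2 ratio of KO over WT was 2.47 (interval 2.01 to 3.09) in RO and -0.47 in PA. The same library was lowest in Tbc1d4, a Rab GAP of insulin-regulated vesicles (502, 286, 94 and 268 counts, 1.56 in RO), in Arhgap31 (449, 801, 109 and 400, 1.93 in RO and 0.95 in PA), in Arhgef5 (141, 153, 50 and 198, 2.01), in Rapgef2 (944, 683, 301 and 640, 1.15) and in Rab14 (1075, 1430, 572 and 1328, 1.28). Rab7b had 1 count in WT RO against 34, 67 and 69 in the other libraries, a log2 ratio in RO of 4.61 with the prior count that CPM values carry; the counting interval, taken without it, runs from 3.65 to 11.5. Its ratio in PA was 1.05 (interval 0.48 to 1.74). WT RO also had the lowest summed CPM of the Sertoli markers and of the markers of muscle, endothelium and macrophages (242, against 437 to 477 in the other libraries), and the part of such cells in these ratios was not tested. Marker by marker, Gata4 and Inha were lowest in KO RO and Csf1r in WT PA. The other markers of both lists were lowest in WT RO.

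On the other side, Rab27a, a Rab of secretory granules, had 951, 526, 1658 and 577 counts (genotype log2 ratios -0.74 and -1.45), and Rab23 had 955, 471, 805 and 318 (-0.90 and -1.26). In PA the lowest ratios after Arhgap33os, at a CPM of at least 10, were those of Rab13, a Rab of tight junctions (231, 63, 148 and 78 counts, log2 ratio -1.73) and, after Arhgef25 and Arhgap33, Rab43 (169, 56, 88 and 68, -1.45). The highest at a CPM of at least 10 was Arhgap26, with 541, 1025, 714 and 821 counts and a log2 ratio of 1.04. Rapgef4 had 1210, 480, 350 and 293 counts and a log2 ratio of -1.21 in PA, and WT PA stood apart from the other 3 libraries. The Leydig markers had the same order of WT PA over the others (207 CPM against 36.3 to 63.7), and their part in this ratio was not tested.

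Genes whose peak was found in 1 genotype had count ratios of either sign. In PA, the 15 genes marked in KO only had a median log2 ratio of KO over WT of -0.30 (6 above 0), and the 8 marked in WT only one of 0.05 (5 above 0). In RO, the 17 marked in KO only had a median of 0.35 (12 above 0) and the 17 marked in WT only one of 0.27 (9 above 0). Genes marked in both genotypes had medians of -0.12 in PA and -0.19 in RO. Rab12 and Tbc1d4 had a peak in WT RO and none in KO RO although their counts in KO RO were higher; the Rab12 peak had a false discovery rate of 0.818 in the authors' deposited list.

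Between fractions, 4 of 91 regulators in WT were at least 2-fold higher in RO than in PA and 15 lower, 20.9% in all, next to 40.2% of all genes (21.6% higher, 18.7% lower) and 23.2% of genes with a peak. In KO, 1 of 92 was higher and 4 were lower, 5.43% in all, next to 32.7% of all genes (17.5% higher, 15.2% lower) and 14.0% of genes with a peak. Among all genes with summed counts between the quartiles of the regulators, 14.0% passed 2-fold in WT and 5.18% in KO. At a CPM of at least 10, 15.9% of 82 regulators in WT and 1.23% of 81 in KO passed 2-fold, next to 21.2% and 10.9% of all genes. The median log2 ratio of RO over PA was -0.22 in WT and -0.11 in KO, next to 0.008 and 0.007 over all genes. Over genes with a peak it was -0.029 in WT and -0.014 in KO. The KO fractions thus differed less in these genes than the WT fractions did (robust SD 0.42 against 0.65), as they did over all genes (0.87 against 1.12).

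**Figure D5:**
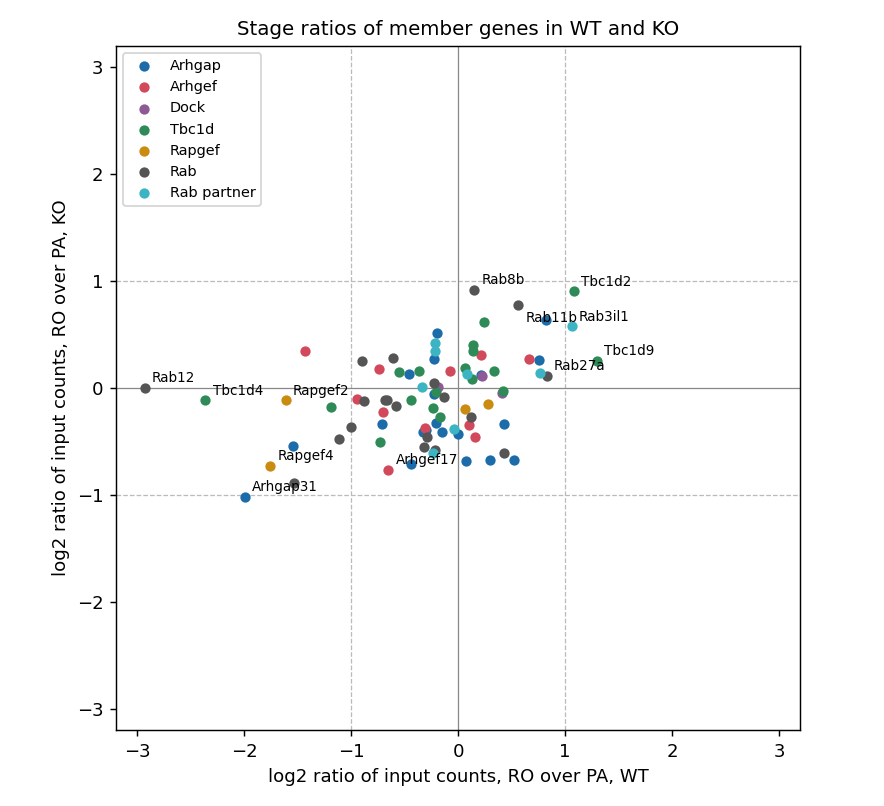
Log2 ratio of input CPM, RO over PA, in WT (x axis) and KO (y axis) for the 84 regulators with a CPM of at least 10 in any library, coloured by family. Dashed lines mark 2-fold. Rab12, Tbc1d4, Rapgef2 and Rapgef4 are far below 0 in WT and within 2-fold in KO, and Arhgap31 alone is past 2-fold lower in both.

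Arhgap31 was the only regulator of those with a CPM of at least 10 past 2-fold the same way in both genotypes, lower in RO by log2 ratios of -2.00 (interval -2.33 to -1.71) in WT and -1.02 (-1.20 to -0.84) in KO; the background of this count is 1.18% of all genes, and 1.40% of all genes were higher in both. Where the higher library reached a CPM of 10, the lowest WT ratios were those of Rab12 (-2.93), Tbc1d4 (-2.36), Arhgap31, Rapgef4 (-1.76) and Rapgef2 (-1.62). In KO their ratios were 0.00 for Rab12, -0.11 for Tbc1d4, -0.73 for Rapgef4 and -0.11 for Rapgef2. The genotype comparison in RO and the WT stage comparison share the WT RO library, so its low values for these genes enter both.

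With the same limit on CPM, the highest WT ratios of RO over PA were those of Tbc1d9 (1.30, interval 1.14 to 1.47), Tbc1d2 (1.08, 0.94 to 1.23) and Rab3il1 (1.06, 0.96 to 1.17). Tbc1d2 had 577, 412, 1200 and 783 counts, and Rab3il1 had 1023, 1467, 2099 and 2219, so in both genes RO was above PA in each genotype (KO ratios 0.91 and 0.58). Tbc1d9 was high in WT RO alone, and its KO ratio was 0.26. In KO, again at a CPM of at least 10, the highest ratio was that of Rab8b (0.92), a Rab of transport to the cell surface and the cilium, and after it Tbc1d2 and Rab11b (0.77), a Rab of recycling endosomes. The lowest after Arhgap31 with that limit were Arhgef17 (-0.77) and Rapgef4. Genes of lower level, such as Arhgap6, Rab7b and Rapgef4os3, are left out of these orders.

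The median genotype ratios of the families lay between -0.45 (Tbc1d) and 0.13 (Dock) in PA and between -0.42 (Tbc1d) and 0.18 (Rab) in RO. The Dock genes had no member past 2-fold in any comparison, nor did the Rab partners except Rab3il1 in the WT stage comparison. Of the 12 Arhgef genes, 3 were past 2-fold lower in KO in PA and 4 in RO, and 0 and 2 were past 2-fold higher, next to the 19.9% and 19.0% lower and 23.8% and 23.0% higher over all genes. Tbc1d31 (log2 ratios -0.62 and -0.42), Rab11fip3 (-0.12 and -0.49), Arhgap29 (-0.42 and -0.25) and Rapgef6 (-0.12 and -0.38) stayed within 2-fold between genotypes, as did Dock3 (0.07 and -0.03).

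Further genes of these pathways were taken from lists of which only genes with a peak have a symbol. Of 22 Ras and Rap GTPases and regulators 1 was at least 2-fold higher and 2 were lower in KO in PA, and 0 and 2 in RO. Of 25 Rab exchange factors, chaperones and partners the counts were 1 and 1 in PA and 2 and 0 in RO, and of 15 Arf GTPases and regulators 1 and 0 in PA and 0 and 1 in RO. The background, past 2-fold either way, is 27.0% of genes with a peak in PA and 27.0% in RO.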

How the data were processed

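Methylated RNA immunoprecipitation sequencing was run on 8 libraries, grouped by their titles. Per the labels' protocols, libraries were prepared with a NEBNext Ultra II kit from fragmented total RNA, before and after capture on an m6A antibody. The submitters' processing notes name the build mm10 and cutadapt 2.5, HISAT2 2.1.0 and HOMER 4.10.4; the counting tool, annotation, peak caller and strand handling are not given in the sources used here. The authors deposited whole-number counts per gene of the 4 input libraries, not normalized, and 4 lists of peaks. The fold, a ratio of captured over input signal, and the log10 false discovery rate (a score) of a peak are the authors' own, per the file headers. The p-value of a peak was deposited by the authors in a further column, whose values show what it holds. Each list was assigned by its name.

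Counts were scaled with TMM (edgeR 4.0.16, R 4.3.3) over the whole table and taken as log2 CPM, adding a prior count of 2. A comparison used genes that reached a CPM of 1 in 1 of its libraries, and counted those that differed 2-fold or more. Intervals are exact binomial for count ratios and Wilson for shares. Scripts (Python 3.11.15, pandas 2.3.3, scipy 1.17.1) were tested on simulated data and the overlaps checked against bedtools 2.31.1. Start windows come from RefSeq.

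The members and gene lists were chosen with earlier results of these data known. Named genes are, per list, the 5 with most peaks, the 5 highest folds and the 3 highest folds with no overlap in the other genotype; per count comparison the 5 highest and 5 lowest ratios at a CPM of at least 10; those past 2-fold the same way in both genotype or both stage comparisons; all Rapgef genes; and the gene with the highest summed CPM per family. Other genes named were chosen after their values were seen. The results of some pathway lists are not reported here. Alternatives were DESeq2 size factors (DESeq2 1.42.0), library totals, a prior count of 0.5, other filters, other overlap rules and stricter peaks.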

Additional observations from a re-analysis of the deposited data

Results flagged for a closer look

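For Arhgef26 and Rab42 the ratio of RO over PA was past 2-fold in opposite directions in the 2 genotypes, each with 1 library per group, and the difference was not tested. Arhgef26 had 35, 35, 14 and 77 counts in WT PA, KO PA, WT RO and KO RO and log2 ratios of -1.18 in WT and 1.08 in KO. Rab42 had 29, 29, 65 and 11 counts and log2 ratios of 1.14 in WT and -1.27 in KO. Rab39 had 0, 16, 5 and 5 counts, and its log2 ratios, 1.78 in WT and -1.39 in KO, were of opposite sign too. Its value in WT depends on the prior count because WT PA held no count, and the counting interval of that ratio starts at -0.099 and so includes no change. All 3 genes had fewer than 100 counts in every library. Arhgef26 and Rab42 were chosen after their values were seen, and Rab39 is named by the rule for its peak.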

How the results depend on the processing

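DESeq2 size factors, a prior count of 0.5, no filter, a fold of at least 5, merging overlapping peaks and leaving out Rab partners and antisense genes moved no count of genes, median or share of the regulators past its limit, and no result reversed. With library totals alone the median of all genes shifted to 0.35 in PA and 0.22 in RO; the regulators then had 10 genes higher and 5 lower in PA (median 0.11) and 6 lower in RO (median 0.10), so the sign of their median depends on the scaling, and of the genes called in both fractions Arhgap33, Arhgap33os and Arhgef25 stayed past 2-fold lower in PA. At a CPM of at least 10, 2 were higher in PA, 9 were higher in RO, and in KO 0 were higher and 1 lower between fractions, since fewer genes were kept. With a false discovery rate under 0.05, 86.3% of WT PA peaks were shared with KO PA and 4 genes were marked in WT only in PA. At a reciprocal overlap of 50%, 54.2%, 47.9%, 44.1% and 50% of the peaks of the 4 lists were shared between genotypes, and 44.9%, 43.2% and 78.6% of WT PA, WT RO and KO RO peaks between fractions. Counting any peak in the same gene, the shares were 91.6%, 86.0%, 83.8% and 79.6% between genotypes, and 80.4% of WT PA, 86.8% of KO PA and 81.1% of WT RO peaks between fractions. Exchanging the KO libraries or lists, an alternative chosen after seeing the data, gave medians of -0.32 in PA and 0.041 in RO and 14 genes marked in WT only in PA. No paired analysis was possible because each group has 1 library, and no replicate could be left out.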

Other observations

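The folds in the deposited lists repeat. Of the 111 regulator peaks in WT RO, 61 shared their fold with another regulator peak of the list, and 10 had a fold of 10.8. In WT PA 50 of 107 did, in KO PA 33 of 121 and in KO RO 24 of 98. The 18 WT RO peaks with a false discovery rate of 0.05 or more had folds of 6.73 to 12.1 and at most 210 exonic bases, so a fold near 10 in that list can go with a weak peak. In WT PA the 12 such peaks had folds of 3.16 to 9.49.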
